A study of Mus musculus with 4 samples.

Results

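The genes described here are 8 members of the Klf family in the mouse morula, the ball of cells that precedes the blastocyst. They were taken by symbol (Klf2, Klf3, Klf4, Klf5, Klf6, Klf9, Klf10 and Klf17) from the 24411 genes listed in the files. All 8 were found in each of the 4 libraries, and all 8 passed the filter on low counts that left 13585 genes for testing. The embryos were of the ICR strain, an outbred stock, made by in vitro fertilization and grown in KSOM medium with bovine serum albumin. Every embryo was electroporated at 3 hpi, at the 1-cell stage, either with control siRNA (siControl) or with siRNA against Pwp1 (siPwp1), and collected at 72 hpi. Each library pooled 10 morulae, and each group had 2 libraries, numbered replicate 1 and replicate 2 in the labels. The labels do not say whether the libraries came from separate cultures or what the libraries of 1 number share, so a p-value speaks only of the spread among the 4 libraries, which may be technical.

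Klf proteins are transcription factors with a block of zinc fingers at the C terminus that binds GC-rich and CACCC-type DNA, while the rest of the protein differs between members and decides whether a gene is activated or repressed. Klf2, Klf4 and Klf5 are known for holding mouse embryonic stem cells in the naive state together with Pou5f1, Sox2, Nanog and Esrrb, and Klf5 is needed for both lineages of the blastocyst, the trophectoderm and the inner cell mass. Klf17 is known from oocytes and the earliest embryo, and Klf3, Klf6, Klf9 and Klf10 are expressed in many tissues.

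Expected counts summed to between 28981358 and 48765229 per library. Pwp1, the targeted gene, stood at 215.4 and 364.9 CPM (counts scaled by library depth with the TMM method) in the siControl libraries, against 36.9 and 37.2 CPM in the siPwp1 libraries. The 9 morula markers examined were at a mean of 1 CPM or more, and their summed level ran from 11400 to 13700 CPM, most of it Dppa3. Of markers of other cells, 2 of 12 cumulus and granulosa genes reached a mean of 1 CPM. Ptx3, Inhba, Cyp19a1 and Cyp11a1 were at 0 in every library. The summed level of the 12 was 7.6 and 11.6 CPM in siControl against 12.5 and 19.6 CPM in siPwp1, without overlap. Most of it was Amhr2, at 5.24 and 10.4 CPM in siControl against 11.4 and 19.0 CPM in siPwp1. The part of these genes in the Klf values was not tested. The 6 sperm genes together stayed between 0 and 1.21 CPM. Oocyte, blood and immune genes are given beside the results they move with.

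Klf5 was the most abundant member per transcript length in every library, followed by Klf2. In TPM, which corrects for length and so allows genes to be compared, Klf5 stood at 93.6 and 120.0 in the siControl libraries, against 122.7 and 99.97 in the siPwp1 libraries. Klf2 stood at 27.7 and 87.2 TPM in siControl against 49.1 and 99.9 TPM in siPwp1. In siPwp1 replicate 2 Klf2 thus reached the level of Klf5, with a ratio of 0.999, while the ratio was 0.296 in siControl replicate 1, 0.727 in siControl replicate 2 and 0.4 in siPwp1 replicate 1. Klf5 lay between the percentiles 91.0 and 92.7 of the genes with a TPM above 0, and Klf2 between 82.3 and 91.0. Klf2 and Klf5 together made up 68.2% to 77.1% of the summed TPM of the 8 genes.

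The other 6 members were lower. Within 1 library they could lie far apart, as in siControl replicate 2, from 1.78 TPM for Klf6 to 23.3 TPM for Klf10. Mean levels over the 4 libraries were 16.4 TPM for Klf10, 13.6 for Klf4, 10.2 for Klf9, 6.98 for Klf17, 5.35 for Klf3 and 5.2 for Klf6. Klf10 and Klf4 were not apart beyond their spread, since Klf10 ran from 11.96 to 23.3 TPM and Klf4 from 10.4 to 16.4 TPM. Klf9 ran from 8.30 to 12.6 TPM and overlapped Klf4 as well, but it lay below Klf10 in each library. The last 3 overlapped one another, and Klf17 also overlapped Klf9, with Klf17 at 1.63 to 12.4 TPM, Klf3 at 2.81 to 7.25 TPM and Klf6 at 1.78 to 8.13 TPM. The lowest place was held by Klf17 in both libraries numbered 1 and by Klf6 in both libraries numbered 2. The ratio of Klf17 to Klf6 in TPM was 0.2 and 0.613 in the replicate 1 libraries of siControl and siPwp1, and 5.14 and 3.96 in their replicate 2 libraries.

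**Figure D1:**
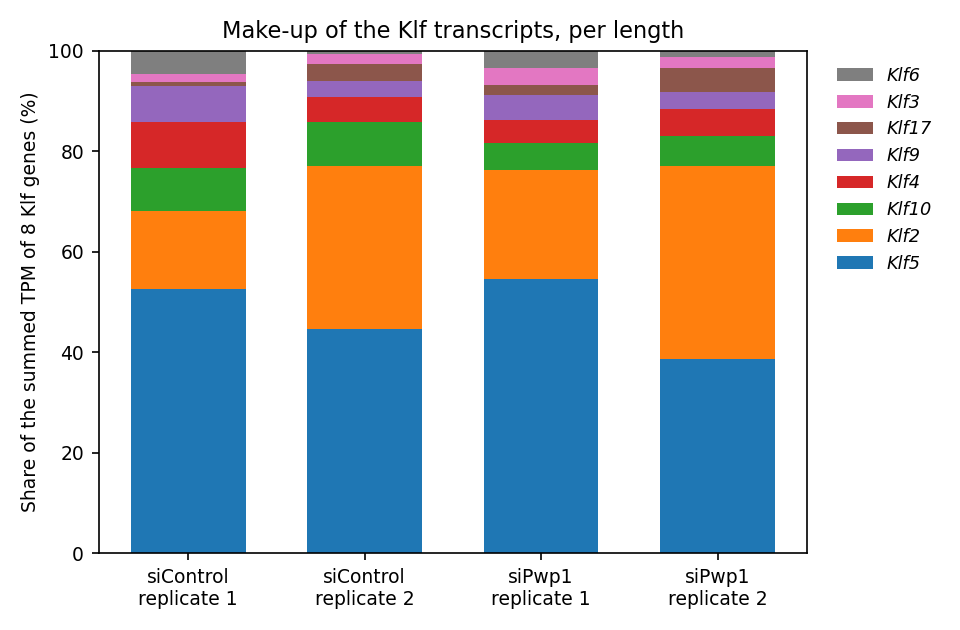
Share of the summed TPM of the 8 Klf genes (%, vertical axis) taken by each gene in each of the 4 libraries, as stacked bars. Klf5 holds 38.6% to 54.5% and Klf2 15.6% to 38.5%, with the larger Klf2 shares in the libraries numbered 2.

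The comparison of siPwp1 with siControl asks what targeting Pwp1 does to the morula transcriptome, and none of the 8 Klf genes passed the test. edgeR's quasi-likelihood test called 0 members, as it called 0 of all genes (0.0%). It did not call Pwp1, the targeted gene, either (log2 fold change -2.97, adjusted p = 0.22). The lack of an edgeR call thus cannot show that a gene was unchanged. An unadjusted p under 0.05 was reached by 0 members, against 2.66% of all genes. DESeq2 also called 0 members, against 0.324% of all genes, but called Pwp1 (adjusted p = 1.47e-12). The median log2 fold change, siPwp1 minus siControl, was 0.08 over the 8 members and 0.00 over all genes, with 5 members above 0 and 3 below. The adjusted p was 0.9998 for each of the 8 with edgeR. Both siPwp1 libraries lay above both siControl libraries for 1 member, Klf3, where 14.7% of all genes did so, and below them for 1 member, Klf10, where 14.1% did so. These counts are near the background.

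Among the factors of naive pluripotency, Klf5 was at 139.3 and 165.3 CPM in siControl against 177.1 and 138.7 CPM in siPwp1. Its groups overlapped, with means of 152 ± 18.4 and 158 ± 27.2 CPM (SD, n = 2). The log2 fold change was 0.05, with a 95% interval from -0.57 to 0.67, the narrowest of the 8. Klf4, one of the factors used to reprogram somatic cells, was at 46.4 and 35.5 CPM in siControl against 28.6 and 37.1 CPM in siPwp1. The siControl library with the lower Klf4 level lay below 1 siPwp1 library, and the log2 fold change was -0.32 (95% interval -1.06 to 0.43).

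Klf2 was at 43.8 and 127.7 CPM in siControl against 75.3 and 147.3 CPM in siPwp1. The spread within a group was larger than the distance between the group means, 85.8 ± 59.3 and 111 ± 50.9 CPM (SD, n = 2), and the log2 fold change of 0.37 had a 95% interval from -0.91 to 1.66. Within each replicate number the siPwp1 library was the higher one, by 0.78 (replicate 1) and 0.21 (replicate 2) in log2 CPM. Over all genes tested, the median size of this difference in either direction was 0.42 (replicate 1) and 0.36 (replicate 2). Klf17 was at 5.52 and 28.8 CPM in siControl against 15.6 and 39.3 CPM in siPwp1. Here too the siPwp1 library was the higher one at each number, by 1.50 and 0.45 in log2 CPM, while the groups overlapped. The log2 fold change of Klf17 was 0.67 (95% interval -1.16 to 2.51). Leaving out siControl replicate 2 gave 2.31, leaving out siControl replicate 1 gave -0.07 and leaving out siPwp1 replicate 2 gave -0.13. With 1 library left out the groups differ in replicate number, so these values also carry the difference by number. They cannot tell what a single library sets.

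Of the members known mainly as repressors, Klf3, which recruits the corepressor CtBP, was at 5.87 and 10.5 CPM in siControl against 14.7 and 11.6 CPM in siPwp1. Its libraries did not overlap between the groups, but the gap between the nearest 2 was small beside the spread within siControl. The log2 fold change was 0.68 (SE 0.44, 95% interval -0.36 to 1.73). Exons of Klf3 overlap those of Gm20033 on the other strand, and the strand setting of the counting is not given in the sources used here, so the level of Klf3 is uncertain. Klf10, an early gene of the TGF-beta response that acts through the Sin3 corepressor, was at 42.8 and 61.2 CPM in siControl against 33.0 and 40.4 CPM in siPwp1. Both siPwp1 libraries were the lower ones, with a log2 fold change of -0.50 (SE 0.31, 95% interval -1.24 to 0.23). Blood and immune markers were also apart by group, with a summed level of 12.7 and 34.8 CPM in siControl against 44.2 and 45.2 CPM in siPwp1, 3 of 9 at a mean of 1 CPM or more, and Hbb-bs, Hbb-bt and Tyrobp at 0 throughout. Most of that sum was Hba-a2, an alpha-globin gene, which stood at 11.3 and 31.7 CPM in siControl against 39.3 and 39.1 CPM in siPwp1. Their part in the values of Klf3 and Klf10 was not tested.

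Klf6, a widely expressed growth-related factor, was at 32.7 and 6.62 CPM in siControl against 30.3 and 11.8 CPM in siPwp1. Klf9, known for its response to steroid and thyroid hormones, was at 38.3 and 23.5 CPM in siControl against 32.8 and 24.97 CPM in siPwp1. Both siPwp1 values of each gene fell inside the range of its siControl values. Log2 fold changes were 0.10 for Klf6 (95% interval -1.71 to 1.92) and -0.10 for Klf9 (95% interval -0.96 to 0.76). Among the 8 members, the intervals of Klf5 and Klf9 were the ones that lay within a 2-fold change in both directions. The other 6 took in a 2-fold change in at least 1 direction, which is thus within the error of this fit. It leaves out replicate number, so its intervals also hold the difference by number. With replicate number added, the log2 fold change by group was 0.49 for Klf2 (SE 0.195, against 0.54 without it). It was 0.96 for Klf17 (SE 0.313, against 0.772) and 0.35 for Klf6 (SE 0.308, against 0.763). That fit called 0 of the 8 members by group.

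**Figure D2:**
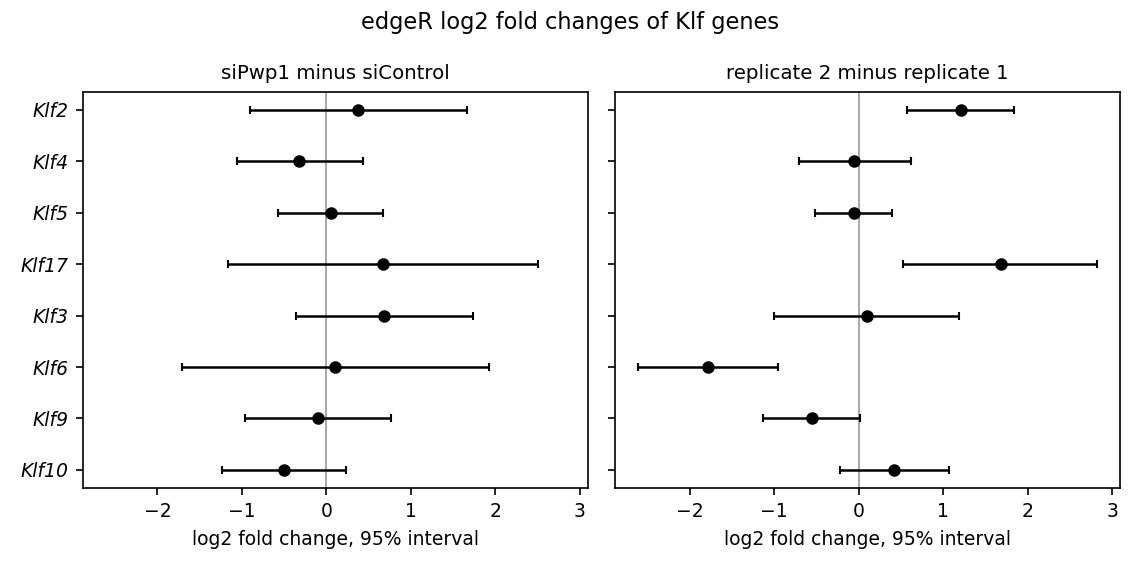
Log2 fold changes of the 8 Klf genes from edgeR (points) with 95% intervals (bars), for siPwp1 minus siControl on the left and replicate 2 minus replicate 1 on the right. All 8 intervals on the left include 0, and those of Klf2, Klf17 and Klf6 on the right do not.

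Larger differences followed the replicate number. Klf2 and Klf17 stood higher and Klf6 stood lower in both libraries numbered 2 than in both libraries numbered 1, whichever siRNA the embryos had received. With replicate number as the single term, edgeR called 0 of the 8 members, against 0.0368% of all genes. The members with an unadjusted p under 0.05 were 3, namely Klf2, Klf6 and Klf17, against 16.7% of all genes. The same 3 were called by DESeq2, which called 9.19% of the genes for which it gave an adjusted p. They were also called by edgeR once group was added beside the replicate number, a fit that called 5.93% of all genes. The call of these 3 genes therefore depends on the model, as does the share of all genes called.

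Klf6 had the smallest p of the 8. Its level was 32.7 and 30.3 CPM in the replicate 1 libraries of siControl and siPwp1 and 6.62 and 11.8 CPM in their replicate 2 libraries. The values fell into 2 pairs by number, with means of 31.5 ± 1.69 and 9.21 ± 3.66 CPM (SD, n = 2), or 3.42-fold lower in replicate 2. The log2 fold change, replicate 2 minus replicate 1, was -1.78 (SE 0.353), with adjusted p = 0.124 by edgeR, 6.06e-05 by DESeq2 and 0.00851 with group added. Over all alternatives the adjusted p of Klf6 ran from 4.94e-05 to 0.272 and the log2 fold change from -2.25 to -1.40. The smallest adjusted p came from edgeR with no filter, as did those of Klf2 and Klf17 given below. That fit took the spread from the trend over genes and not from the gene itself. The level of 6.62 CPM in siControl replicate 2 rests on 291 counts. Its 95% exact Poisson interval, from 5.88 to 7.43 CPM, covers counting error only.

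Klf2 was at 43.8 and 75.3 CPM in the replicate 1 libraries of siControl and siPwp1 and at 127.7 and 147.3 CPM in their replicate 2 libraries. The difference was 2.91-fold within siControl and 1.96-fold within siPwp1. Its log2 fold change was 1.21 (SE 0.272), with adjusted p = 0.15 by edgeR, 0.00111 by DESeq2 and 0.00598 with group added, and from 1.7e-05 to 0.477 over all alternatives. Klf17 was at 5.52 and 15.6 CPM in replicate 1 and at 28.8 and 39.3 CPM in replicate 2, or 5.21-fold higher within siControl and 2.51-fold higher within siPwp1. Its log2 fold change was 1.68 (SE 0.488), with adjusted p = 0.186 by edgeR, 0.00521 by DESeq2 and 0.00851 with group added, and from 0.000126 to 0.516 over all alternatives. The lowest Klf17 value, in siControl replicate 1, rests on 159 counts (95% exact Poisson interval 4.69 to 6.45 CPM). That library was the lowest of the 4 for Klf2, Klf3 and Klf17. Without it the log2 fold changes by number were 0.87 for Klf2, 1.12 for Klf17 and -1.72 for Klf6. Without siPwp1 replicate 1 they were 1.65, 2.62 and -1.83, so the size for Klf17 moved with either library numbered 1.

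**Figure D3:**
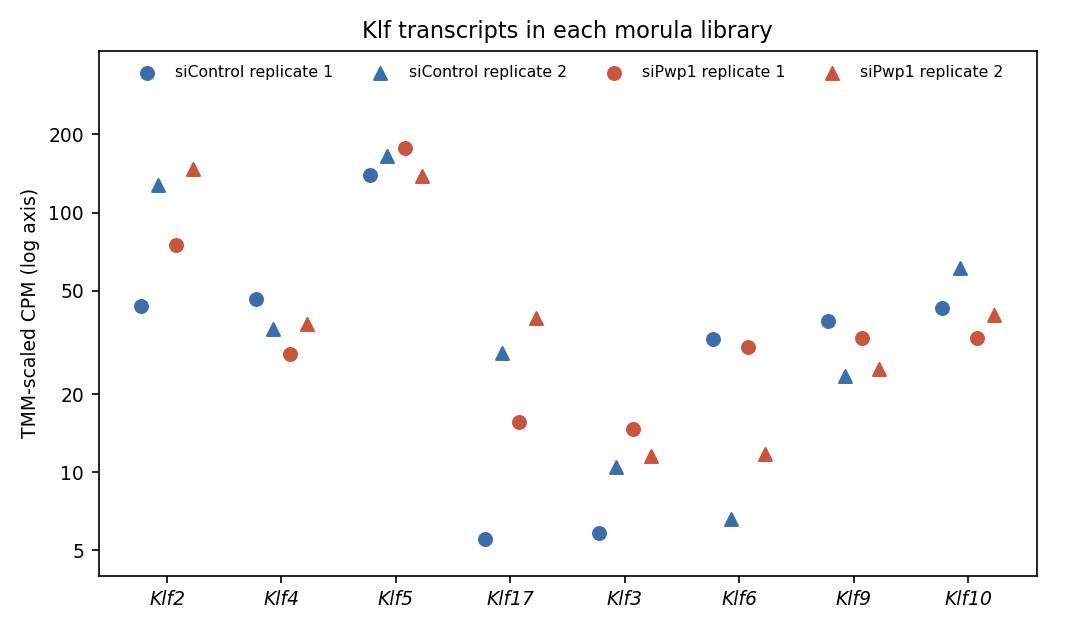
TMM-scaled CPM (log axis) of each Klf gene in the 4 libraries, with siControl in blue, siPwp1 in red, replicate 1 as circles and replicate 2 as triangles. For Klf2 and Klf17 both triangles lie above both circles, for Klf6 and Klf9 both lie below, and for the other genes the shapes are mixed.

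The libraries of the 2 numbers did not overlap for 4 of the 8 members. Klf2 and Klf17 were higher in replicate 2, as were 24.7% of all genes, and Klf6 and Klf9 were lower, as were 25.7%. With the further condition that the means differed at least 2-fold, the higher members were again Klf2 and Klf17 (6.88% of all genes) and the lower one was Klf6 (8.67%). Klf9 was at 35.5 ± 3.89 CPM in replicate 1 and 24.2 ± 1.06 CPM in replicate 2 (SD, n = 2), a log2 fold change of -0.55 (SE 0.244, edgeR adjusted p = 0.316). Klf5 and Klf4 had log2 fold changes of -0.06 (95% interval -0.52 to 0.40) and -0.05 (95% interval -0.71 to 0.62). For Klf3 and Klf10 the values were 0.10 (95% interval -1.0 to 1.19) and 0.42 (95% interval -0.22 to 1.07). The median over the 8 members was 0.03, against -0.01 over all genes, with 4 members above 0 and 4 below.

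**Figure D4:**
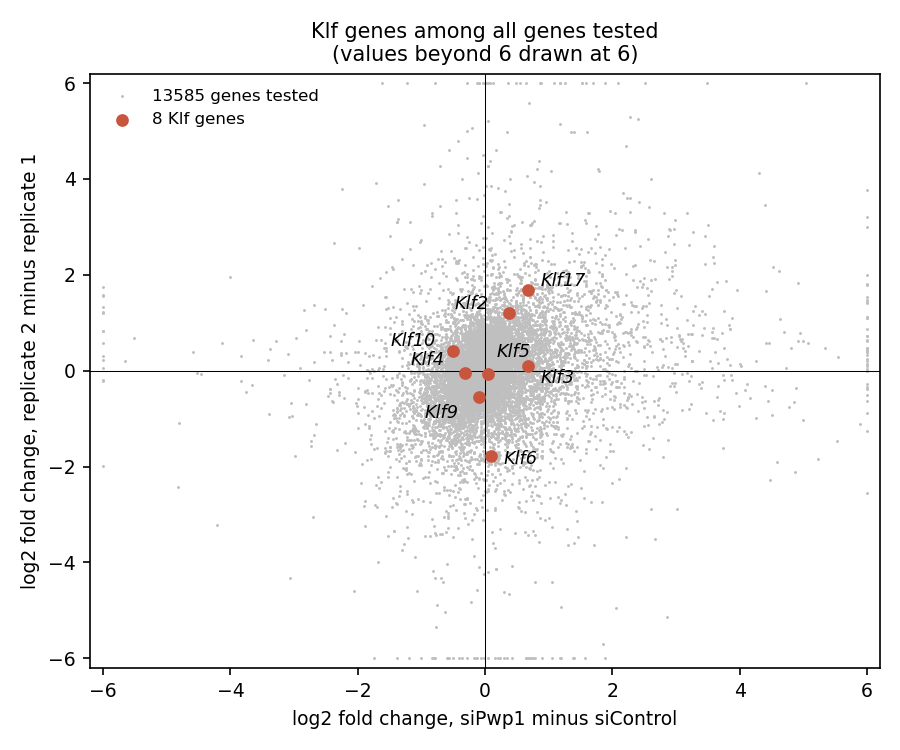
Log2 fold change of each gene by replicate number (vertical axis, replicate 2 minus replicate 1) against that by group (horizontal axis, siPwp1 minus siControl), from 2 separate edgeR fits to the same 4 libraries, with all 13585 tested genes in grey and the 8 Klf genes in red. Klf17 and Klf2 lie at 1.68 and 1.21 on the vertical axis and Klf6 at -1.78, while no Klf gene lies beyond 0.68 in size on the horizontal axis.

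Some genes of other groups also stood apart by replicate number, together with these 3 genes. Of the 11 tested trophectoderm genes, 6 lay lower in both replicate 2 libraries and 1 higher, against 25.7% and 24.7% of all genes. The median log2 fold change was -1.13, but the signs were split, with 6 below 0 and 5 above. The list thus did not fall as a whole. DESeq2 called 5 of them lower, and edgeR with group added also called 5 lower, where the shares of all genes called in either direction were 9.19% and 5.93%. edgeR with number alone called 2 of the 11, against 0.0368% of all genes, the keratin genes Krt18 and Krt8, which fell by 3.19 (adjusted p = 0.039) and by 3.07 (adjusted p = 0.0454). Cdx2, a trophectoderm regulator, was at 15.4 and 5.76 CPM in the replicate 1 libraries and at 2.14 and 0.897 CPM in the replicate 2 libraries. Oocyte markers had a summed level of 8.71 and 10.1 CPM in the replicate 1 libraries and 23.4 and 31.9 CPM in the replicate 2 libraries. Most of the difference was Zp3 (3.23 and 3.56 against 10.3 and 16.3 CPM) and Oog1 (2.01 and 0 against 6.44 and 6.97 CPM). Zp2 and Oosp1 were also higher in both replicate 2 libraries, while Bmp15, Gdf9, Mos and Zp1 overlapped between the numbers. Of these 8 markers 5 were at a mean of 1 CPM or more, and none was at 0 in every library. The part of these other genes in the Klf values was not tested. Fewer cells of a type and less RNA per cell cannot be told apart in pooled embryos.

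The DNA upstream of Klf2, Klf17 and Klf6 is shown because these are the members that stood apart by replicate number. The sequences are the 250 bases before the transcription start in RefSeq on GRCm38.p6, the assembly mm10 names, written 5′ to 3′ on the strand of the gene. Capitals mark every GGGCGG (the GC box bound by Sp and Klf proteins) and every CACCC, each on either strand, so that CCGCCC and GGGTG are marked too. Matches of the same or of different motifs may overlap. Klf2 is at chr8:72318812-72319061 on the plus strand, Klf17 at chr4:117765667-117765916 on the minus strand and Klf6 at chr13:5861239-5861488 on the plus strand.
Klf2: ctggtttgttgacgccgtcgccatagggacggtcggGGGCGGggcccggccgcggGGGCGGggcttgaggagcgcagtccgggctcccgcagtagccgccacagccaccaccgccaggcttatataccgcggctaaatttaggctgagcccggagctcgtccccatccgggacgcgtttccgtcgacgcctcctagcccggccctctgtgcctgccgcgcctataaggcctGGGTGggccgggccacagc
Klf17: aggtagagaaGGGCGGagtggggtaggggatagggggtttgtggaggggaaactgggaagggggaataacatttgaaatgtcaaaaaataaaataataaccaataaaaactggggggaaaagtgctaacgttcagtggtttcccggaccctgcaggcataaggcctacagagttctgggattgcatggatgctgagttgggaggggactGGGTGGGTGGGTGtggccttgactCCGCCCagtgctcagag
Klf6: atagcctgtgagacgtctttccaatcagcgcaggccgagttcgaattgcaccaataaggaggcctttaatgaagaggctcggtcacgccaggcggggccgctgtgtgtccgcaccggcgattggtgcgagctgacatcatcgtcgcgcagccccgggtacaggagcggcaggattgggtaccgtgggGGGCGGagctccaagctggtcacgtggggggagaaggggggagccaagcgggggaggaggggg

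In these windows Klf2 had 2 matches to GGGCGG and 1 to CACCC, Klf17 had 2 and 3, and Klf6 had 1 and 0. Klf6 held 4 matches to CCAAT on either strand, Klf17 held 1 and Klf2 none. The window of Klf17 had a GC content of 52.0%, close to the median of 52.4% over all 32851 windows of the table, while Klf2 reached 71.2% and Klf6 64.8%. The table held 6 of the 8 members, and Klf5 and Klf10 were not among them. Of those 6, Klf3 held 6 GGGCGG matches and Klf4 held 4, and Klf9 held none. GGGCGG occurred in 32.7% of all windows of the same length, CACCC in 52.0% and CCAAT in 33.8%. Such matches are a description of the letters and not of binding.

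The genes themselves lie on several chromosomes. By GENCODE release M21 on GRCm38, Klf2 is on chromosome 8 at 72319033 to 72321656, Klf17 on chromosome 4 at 117757836 to 117765648, and Klf6 on chromosome 13 at 5861482 to 5870394. Klf5 is on chromosome 14 at 99298691 to 99315036, and Klf4 on chromosome 4 at 55527143 to 55532466. Klf3 is on chromosome 5 at 64803388 to 64832901, Klf9 on chromosome 19 at 23141226 to 23168134, and Klf10 on chromosome 15 at 38291463 to 38300706. The RefSeq windows of Klf2, Klf6 and Klf3 end at 72319061, 5861488 and 64803520. Their last bases thus lie inside the gene by the GENCODE annotation, and the 1 CACCC match of Klf2 is among them. All 8 are protein-coding, with 2 to 6 exons in the transcript model that has the most. Klf3 is the only one of the 8 whose exons overlap those of another gene in this annotation.

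Of the other 10 Klf genes sought, 9 were listed in the files and 7 were tested. The 8 members made up 90.3% to 92.8% of the summed TPM of the 17 listed Klf genes. edgeR called 0 of the 7 by group and 0 by replicate number, with 0 and 1 at an unadjusted p under 0.05, and DESeq2 called 0 in both. Klf8, a repressor that binds CtBP, was at 23.8 and 39.2 CPM in siControl against 19.5 and 21.5 CPM in siPwp1, a log2 fold change of -0.62 (SE 0.358). Klf11, a relative of Klf10, was at 14.7 and 12.3 CPM in the replicate 1 libraries and at 24.6 and 21.8 CPM in the replicate 2 libraries, a log2 fold change of 0.78 (SE 0.287, edgeR adjusted p = 0.246). Klf13 was at 30.0 to 35.3 CPM and Klf16 at 3.88 to 7.22 CPM. Klf1, the erythroid factor, was at 0.631 to 2.41 CPM, and Klf7 and Klf15 stayed under 1 CPM. Klf12 and Klf14 did not pass the filter and reached at most 0.158 and 0.238 CPM.

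The Sp genes encode close relatives that bind the same GC boxes. Of the 9, 6 were tested, and edgeR called 0 by group and 0 by replicate number, as did DESeq2, with 0 and 2 at an unadjusted p under 0.05. Sp1 was at 72.98 and 88.3 CPM in siControl against 72.2 and 85.5 CPM in siPwp1, and Sp3 at 64.4, 54.7, 58.3 and 52.8 CPM in the same order. Both genes lay within 0.11 of 0 in log2 fold change by group, at -0.03 (SE 0.264) and -0.10 (SE 0.265). Sp2 was at 4.89 and 5.58 CPM in the replicate 1 libraries and at 11.2 and 10.96 CPM in the replicate 2 libraries, a log2 fold change of 1.08 (SE 0.341, edgeR adjusted p = 0.201).

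Genes around the Klf proteins were examined as lists. Among 16 tested cofactors and ubiquitin ligases of Klf proteins edgeR called 0 by group, and 3 were higher and 3 lower without overlap, near the 14.7% and 14.1% of all genes. Ctbp2, a corepressor gene, was among the lower ones at 66.6 and 42.8 CPM in siControl against 37.2 and 36.2 CPM in siPwp1 (log2 fold change -0.57, SE 0.314), and its relative Ctbp1 stood at 12.6 and 10.6 CPM in siControl against 7.24 and 10.4 CPM in siPwp1. The group comparison had 0 of the 16 at an unadjusted p under 0.05 and 0 called by DESeq2. By replicate number edgeR again called 0 of the 16, while Fbxw7 and Hdac1 had an unadjusted p under 0.05 and were called by DESeq2. Fbxw7, a ligase subunit that targets Klf5 for degradation, was at 4.82 and 3.88 CPM in the replicate 1 libraries and at 0.887 and 1.10 CPM in the replicate 2 libraries (log2 fold change -2.13, SE 0.521, edgeR adjusted p = 0.158). Hdac1, a deacetylase of the Sin3 complex, was at 226 and 273 CPM in replicate 1 and at 428 and 449 CPM in replicate 2 (log2 fold change 0.81, SE 0.168, edgeR adjusted p = 0.132).

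Upstream of the Klf genes, LIF acts through Stat3 on Klf4, the kinase Erk5 acts through Mef2 factors on Klf2, and TGF-beta acts on Klf10. Of 18 tested genes of these signals and of the glucocorticoid receptor, edgeR called 0 by group and 0 by replicate number, with 0 and 3 at an unadjusted p under 0.05 and 0 called by DESeq2 in both. The 3 of 18 by number are no more than the 16.7% of all genes at that p. Socs3, a target and brake of Stat3, was at 6.07 and 14.7 CPM in siControl against 14.8 and 21.3 CPM in siPwp1, and Stat3 itself at 21.7, 6.96, 7.86 and 9.76 CPM in the same order. Mef2d was at 4.93 and 4.24 CPM in the replicate 1 libraries and at 9.87 and 8.54 CPM in the replicate 2 libraries (log2 fold change 1.01, SE 0.358, edgeR adjusted p = 0.235). Besides Mef2d, Smad2 and Tgfb1 had an unadjusted p under 0.05 by number. Smad2 stood at 64.1 and 74.0 CPM in replicate 1 and 115 and 97.7 CPM in replicate 2 (log2 fold change 0.62). Tgfb1 stood at 0.347 and 1.70 CPM in replicate 1 and 5.12 and 3.12 CPM in replicate 2 (log2 fold change 1.98). Mef2a, above that p, was at 13.3 and 11.5 CPM in replicate 1 and at 17.6 and 17.8 CPM in replicate 2. By number 6 of the 18 lay higher without overlap and 2 lower, against 24.7% and 25.7% of all genes. The kinases of the Erk5 branch, picked out after their values were seen, had negative log2 fold changes by number, -0.70 for Map2k5 (SE 0.607) and -0.59 for Mapk7, which encodes Erk5 (SE 0.445). Mapk7 was at 9.89 and 4.87 CPM in the replicate 1 libraries and at 4.89 and 4.88 CPM in the replicate 2 libraries. Its libraries overlapped, and its change rests on siControl replicate 1. The part of these signals in the Klf values was not tested.

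Of 15 tested pluripotency factors, edgeR called 0 by group and 0 by replicate number, with 1 and 4 at an unadjusted p under 0.05, against 2.66% and 16.7% of all genes. The median log2 fold change was -0.24 by group and 0.20 by number. Tfcp2l1, a naive pluripotency factor, was at 243 and 136 CPM in siControl against 100 and 106 CPM in siPwp1 (log2 fold change -0.88, SE 0.328, edgeR adjusted p = 0.9998). Myc was at 12.4 and 15.2 CPM in the replicate 1 libraries and at 35.2 and 44.2 CPM in the replicate 2 libraries (log2 fold change 1.52, SE 0.276, edgeR adjusted p = 0.111). DESeq2 called 0 of these factors by group. By number it called Myc and Nr5a2 higher and Sox2 lower in replicate 2, against 9.19% of all genes with an adjusted p. Sox2 was at 8.16 and 0.732 CPM in the replicate 1 libraries and at 0.205 and 0.232 CPM in the replicate 2 libraries. The size of its change thus rests mostly on siControl replicate 1. Among 9 tested FGF and primitive endoderm genes, edgeR called 0 in either comparison, with 1 by group and 2 by number at an unadjusted p under 0.05, and DESeq2 called 0 by group and Fgf4 by number. Fgf4, which Klf5 is known to repress in the early embryo, was at 8.43 and 7.82 CPM in replicate 1 and at 18.6 and 20.5 CPM in replicate 2 (log2 fold change 1.27, SE 0.304, edgeR adjusted p = 0.158). Klf5 itself overlapped between the numbers, and its part in the Fgf4 values was not tested.

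Klf17 was also set beside the genes of genome activation and the 2-cell stage, since it is expressed early. The list was chosen with earlier results of these data known. The shares of all genes given beside its counts are thus no test of the list. Of 11 tested genes of this list, 9 lay higher in both siPwp1 libraries (14.7% of all genes) and 0 lower, and the median log2 fold change by group was 3.17. edgeR called 0 with 8 at an unadjusted p under 0.05 (2.66% of all genes), and DESeq2 called 6 (0.324%). By replicate number 1 lay higher and 0 lower without overlap, with a median of 0.61 and 0 called by DESeq2 or by edgeR with number alone, or at an unadjusted p under 0.05. With group added edgeR called 2 by number, Tdpoz4 (adjusted p = 0.0212) and Zfp352 (adjusted p = 0.0174), against 5.93% of all genes. Klf17 had the opposite order of sizes, with a log2 fold change of 0.67 by group and 1.68 by replicate number. The difference between Klf17 and the list was not tested.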

How the data were processed

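The data are RNA-seq of pooled mouse morulae, 2 siControl and 2 siPwp1 libraries, grouped by the sample titles. The submitters' processing notes name STAR 2.7.10 and RSEM 1.3.3, with mm10 as the build. For the annotation release and the strand, the setting is not given in the sources used here. Per the file headers, the deposited values are expected counts per gene, without normalization, and TPM, which the authors computed per effective length. TPM served to compare levels between genes. FPKM were not used.

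Expected counts were rounded to whole numbers, filtered with filterByExpr (minimum count 10), scaled by TMM and tested with edgeR 4.0.16 in R 4.3.3 (quasi-likelihood, two-sided), with group or replicate number as the single term. P-values were adjusted over all 13585 genes by the Benjamini-Hochberg method, threshold 0.05. The SE was taken as the size of the log2 fold change divided by the root of F, and 95% intervals use the t distribution with the degrees of freedom of the fit. The smallest p of an exact two-sided permutation test of 2 against 2 is 0.333. The tests were tried on simulated data. Alternatives were DESeq2 1.42.0, limma 3.58.1 on log2(TPM + 1) and log2(TPM + 0.1), other filters and size factors, a further term, and each library left out. Named genes were the 8 members, the other Klf genes, the Sp genes, Pwp1, and from each list the 4 genes of smallest p among those averaging at least 1 CPM. Map2k5 and Mapk7 were added after their values were seen. The members and lists were chosen with earlier results of these data known.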

Additional observations from a re-analysis of the deposited data

How the results depend on the processing

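For siPwp1 against siControl, 0 Klf members were called by edgeR, DESeq2 or limma under any of the alternatives, including the fit with replicate block. Over all genes, where edgeR called 0, the alternatives gave 44 (DESeq2), 106 (no filter) and 80 (replicate block), and 6 to 142 with 1 library left out. In either comparison, the fit with no filter took each gene's spread from the trend over genes alone. The replicate numbers are not known to pair the libraries. Deviations of same-numbered libraries from their group means correlated at 0.317 across genes.

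For replicate 2 against replicate 1, where edgeR called 0 members and 5 genes, 3 members (Klf2, Klf6 and Klf17) were called by DESeq2, with group added and with no filter, and 0 to 3 with 1 library left out, the 3 coming without siPwp1 replicate 1. Genes called numbered 934 (DESeq2), 805 (group added), 1008 (no filter), 16 (stricter filter), 2 (limma, either pseudocount) and 1 to 948 with 1 library left out.

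Of 176 alternative values for single members, 146 kept direction and side of the threshold, 12 passed it and 18 changed sign, none of them a called value. By group the sign changed without 1 library for Klf2 (-0.20 and -0.18, range up to 1.34), Klf5 (-0.14 and -0.07, up to 0.22), Klf6 (-0.74 and -0.63, up to 1.67), Klf9 (0.09 and 0.30, down to -0.41) and Klf17 (-0.13 and -0.07, up to 2.31). By replicate number it changed for Klf3 (-0.41 without siControl replicate 1, and up to 0.91 without another library), Klf4 (0.34 without siControl replicate 1, down to -0.35 without another, 0.07 and 0.08 with limma) and Klf5 (0.06 and 0.13 without siPwp1 replicate 2 or 1, down to -0.22 without another, 0.03 with limma). With 1 library left out, group and replicate number are no longer balanced, so each difference also carries part of the other. The causes were not tested. A count of 3 corresponds to 0.0594 to 0.104 CPM, far below the members.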
